A study of Mus musculus with 23 samples.

Results

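Csnk1e encodes casein kinase 1 epsilon, and its messenger RNA was followed here across selected mouse lines and a methamphetamine injection. All probe sets that the platform annotation assigns to Csnk1e were to be used. The annotation assigns 1 such probe set, 97925_at, out of 12422 tested probe sets, and Csnk1e is 1 of 8251 genes on the array. Agreement between probe sets of the gene could therefore not be examined. The tissue was nucleus accumbens, a ventral striatal region with dense dopamine input. The founding stock was a cross of C57BL/6J x DBA/2J, and each mouse belonged to a line selected for a high (HMACT) or a low (LMACT) acute response to methamphetamine, a stimulant that releases dopamine.

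Mice of either line were injected with saline or with methamphetamine at 2 mg/kg, and the tissue was collected 1 hour after the injection. Every array carried RNA of a 4-way tissue pool, with 6 arrays for HMACT after saline, 6 for HMACT after methamphetamine, 6 for LMACT after saline and 5 for LMACT after methamphetamine. Mean age was 114.65 ± 34.9 days (SD, n = 12) in HMACT pools and 76.6 ± 22.5 days (SD, n = 11) in LMACT pools, so line and age overlap only in part. The labels name no genotype, sex or further treatment. They do not say how animals were shared among pools, so each p-value measures the spread between these pools, which may be technical.

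Casein kinase 1 epsilon is a serine/threonine kinase. It phosphorylates the PER proteins of the circadian clock and so sets their stability, and it phosphorylates Dishevelled in Wnt signalling. In striatal projection neurons casein kinase 1 also acts on DARPP-32, the phosphoprotein that relays dopamine receptor signals to protein phosphatase 1. Csnk1e has been studied as a candidate gene for the locomotor response to methamphetamine, and it was chosen here for that reason.

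The deposited values run from 2.23 to 16.4 and behave as log2 values, with a floor below 2.3. On no array did 2089 genes rise above that floor, and 6162 genes were above it on 1 array or more. Csnk1e was above it on all 23 arrays. Along the first axis of variation within groups, which holds 62.1% of the residual variance of 5308 genes, 4 arrays stood apart. They were LMACT methamphetamine replicate 4, HMACT methamphetamine replicate 3 and, after saline, HMACT replicates 3 and 5. Of 10 markers of striatal projection neurons, 5 are on the array; Penk, Tac1, Pdyn and Drd2 were above the floor on all 23 arrays and Rgs9 was at the floor on every array. The cortical marker Tbr1 was also above the floor on all 23 arrays.

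Csnk1e was highest on average in HMACT pools after saline and lowest in LMACT pools after methamphetamine, but the groups overlapped widely. After saline, the 6 HMACT pools read 9.01, 8.51, 9.37, 7.89, 8.55 and 8.48 in log2 units, for replicates 1 to 6. The median was 8.53, and this group held the highest value of all arrays as well as 1 of the lowest, in replicate 4. After methamphetamine, the 6 HMACT pools read 8.39, 8.53, 8.53, 8.08, 8.21 and 8.48. These lay closest together of the 4 groups, and all of them were inside the range of the HMACT saline pools.

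In LMACT after saline the 6 values were 7.82, 8.37, 8.25, 7.80, 8.71 and 8.53. After methamphetamine, LMACT replicates 2 to 6 read 8.13, 8.47, 8.53, 6.92 and 8.31. Replicate 5 of that group stood 1 log2 unit or more below the others, and the remaining 4 values lay within the range of LMACT after saline.

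**Figure D1:**
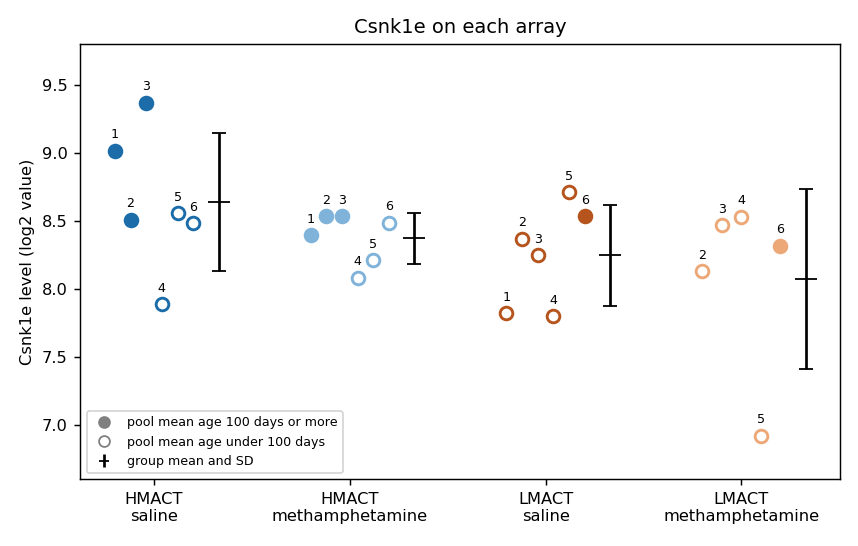
Csnk1e log2 level on each of 23 arrays, by group, with replicate numbers beside the points; filled points are pools with a mean age of 100 days or more, open points are younger pools, and the bars give the group mean and SD. The groups overlap, HMACT saline replicate 3 is highest (9.37) and LMACT methamphetamine replicate 5 is lowest (6.92).

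Group means were 8.64 ± 0.51 (SD, n = 6) for HMACT after saline and 8.37 ± 0.19 (SD, n = 6) for HMACT after methamphetamine. They were 8.25 ± 0.37 (SD, n = 6) for LMACT after saline and 8.07 ± 0.66 (SD, n = 5) for LMACT after methamphetamine. From the highest mean to the lowest, neighbouring groups differed by 0.26, 0.13 and 0.17, in each case less than the larger SD of the pair. Without LMACT methamphetamine replicate 5 that group averaged 8.36 ± 0.18 (SD, n = 4), above LMACT after saline and level with HMACT after methamphetamine. The place of the lowest group in this order therefore rests on 1 array. Within groups Csnk1e had a residual SD of 0.45, and 65.5% of the 6831 probe sets above the floor on 12 arrays or more had a smaller one.

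The line comparison asked whether Csnk1e differed between mice selected for a high and a low response. Csnk1e averaged 8.50 ± 0.39 (SD, n = 12) in HMACT, from 7.89 to 9.37, and 8.17 ± 0.50 (SD, n = 11) in LMACT, from 6.92 to 8.71. With equal weight to both injections, the log2 difference was 0.34 (SE 0.188) in favour of HMACT, which is 1.27-fold with a 95% interval from 0.967 to 1.67. It did not pass the threshold in limma, the linear model fitted across all probe sets (Benjamini-Hochberg adjusted p = 0.526). In the same comparison 0.137% of the 12422 probe sets were called at an adjusted p under 0.05, and 10.7% had an unadjusted p under 0.05. A two-sided exact permutation test of the single value within injections gave p = 0.0739, or 0.429 adjusted over the 6 comparisons tested in that way. Fewer cells with the transcript and less transcript per cell cannot be told apart in such tissue pools.

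After saline alone, the line difference was 0.39 (SE 0.260; limma adjusted p = 0.544; exact permutation p = 0.158). The 95% interval ran from -0.15 to 0.93, and 0.00805% of probe sets were called. After methamphetamine alone, it was 0.30 (SE 0.272; limma adjusted p = 1; exact permutation p = 0.359), with an interval from -0.27 to 0.87. No probe set was called there, and 4.07% had an unadjusted p under 0.05. Without LMACT methamphetamine replicate 5 the second value was 0.01. None of the 3 line comparisons passed, and the intervals include no difference and reach 1.67-fold, 1.91-fold and 1.83-fold in favour of HMACT, in the order given.

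The drug comparison asked whether Csnk1e differed 1 hour after methamphetamine. The 12 saline pools averaged 8.44 ± 0.47 (SD, n = 12), and the 11 drug pools 8.24 ± 0.47 (SD, n = 11). With equal weight to both lines the log2 difference was -0.22 (SE 0.188), a level 1.16-fold lower in the drug pools that did not pass in limma (adjusted p = 1). Of all probe sets tested, 0.0161% were called in this comparison. The two-sided exact permutation p was 0.268, or 0.429 adjusted. The 95% interval of the log2 difference ran from -0.61 to 0.17.

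In HMACT alone the difference was -0.26 (SE 0.260; limma adjusted p = 1; exact permutation p = 0.286), and 0.00805% of probe sets were called. In LMACT alone it was -0.17 (SE 0.272; limma adjusted p = 1; exact permutation p = 0.665), with no probe set called and 2.98% at an unadjusted p under 0.05. The LMACT value turned to 0.11 without LMACT methamphetamine replicate 5. The difference between the lines' drug effects, tested as an interaction, was -0.09 (SE 0.376; limma adjusted p = 1), with an interval from -0.88 to 0.70. No probe set was called for the interaction, and 2.17% had an unadjusted p under 0.05. At this precision a difference between the lines in the Csnk1e response was not detectable.

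Single arrays moved these values more than the choice of normalization did. Leaving out 1 array at a time gave a mean line difference between 0.20 and 0.42. The lowest value came without LMACT methamphetamine replicate 5. The highest came without HMACT saline replicate 4, the only omission with an unadjusted p under 0.05, and it did not pass after adjustment in limma (adjusted p = 0.388). For the mean drug effect the omissions gave -0.29 to -0.07, and the value nearest 0 again came without LMACT methamphetamine replicate 5. Quantile normalization and median centring gave line differences of 0.38 and 0.35. Array weights, which count arrays that fit the model poorly for less, gave 0.01 for the line and -0.06 for the drug.

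**Figure D2:**
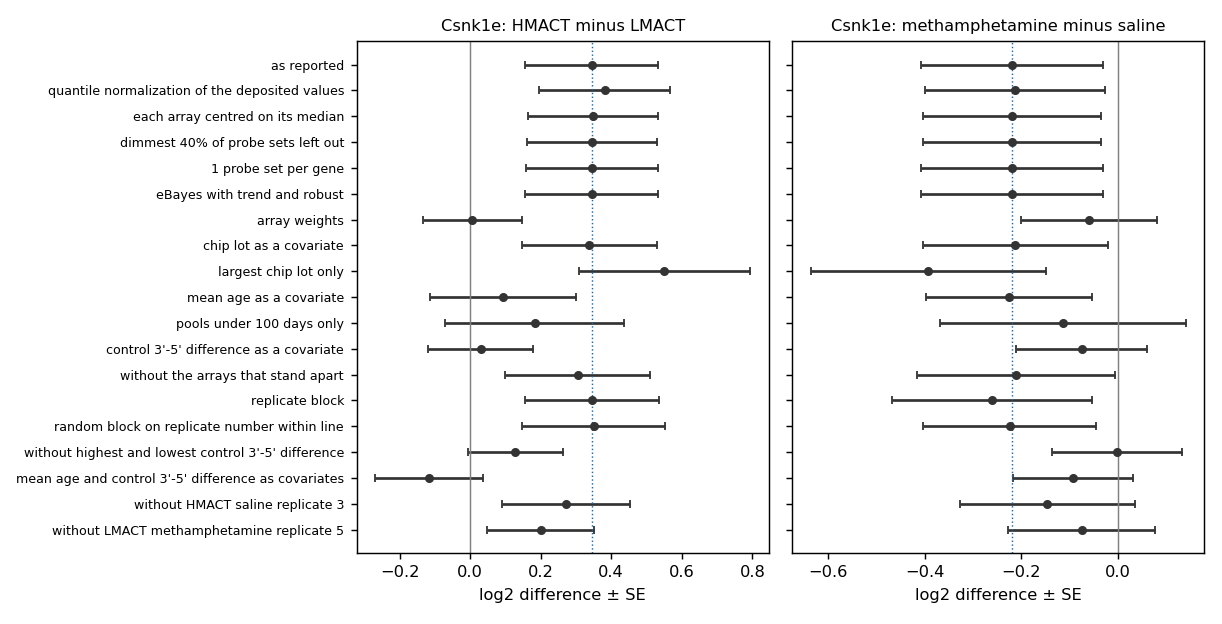
Csnk1e log2 difference between lines (left) and between injections (right), with standard errors, as reported and under each alternative, including the 2 single omissions with the arrays of highest and lowest Csnk1e. The dotted line is the reported value (0.34 and -0.22). The line difference falls to 0.01 with array weights, 0.09 with mean age as a covariate and 0.03 with the control 3' minus 5' difference as a covariate. It is lowest, at -0.12, with those covariates together and highest, at 0.55, in the largest chip lot.

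Chip lots did not give the same line difference. In the largest lot, with 15 arrays, Csnk1e averaged 8.66 ± 0.34 (SD, n = 8) in HMACT and 8.14 ± 0.61 (SD, n = 7) in LMACT. A fit of that lot alone gave a line difference of 0.55 (SE 0.243; limma adjusted p = 0.363). In the lot labelled B here, with 4 arrays, the order was the other way round, with 7.89 and 8.08 in HMACT against 8.37 and 8.13 in LMACT. In the remaining 4 arrays HMACT read 8.55 and 8.21 and LMACT 7.80 and 8.53. With lot as a covariate the line difference was 0.34.

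Older HMACT pools had more Csnk1e on average than younger ones. The 6 HMACT pools of 100 days or more averaged 8.72 ± 0.38 (SD, n = 6) and the 6 younger pools 8.28 ± 0.27 (SD, n = 6). After saline the older HMACT pools averaged 8.96 ± 0.43 (SD, n = 3) against 8.31 ± 0.37 (SD, n = 3). After methamphetamine the figures were 8.49 ± 0.08 (SD, n = 3) and 8.26 ± 0.21 (SD, n = 3). In LMACT the 9 younger pools averaged 8.11 ± 0.54 (SD, n = 9), and the older pools, 1 after each injection, read 8.53 and 8.31.

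As a covariate in limma, mean age had a slope of 0.066 log2 units per 10 days (SE 0.0302; adjusted p = 0.761). With age as a covariate the line difference was 0.09 (SE 0.207; limma adjusted p = 1), and among pools under 100 days it was 0.18 (SE 0.254; limma adjusted p = 1). Within those younger pools the deviation of Csnk1e from its group mean had no detectable relation to age (n = 15, Pearson r = -0.05, permutation p = 0.876; Spearman rho = 0.16, permutation p = 0.608). Without the 2 pools farthest from the median age r was -0.14. Among the 6 older HMACT pools r was 0.72 (exact permutation p = 0.278, adjusted p = 0.417) and rho 0.49 (exact permutation p = 0.583). Without the 2 farthest r was 0.91, but only 2 pools of each injection then remain, and their deviations mirror each other. That value rests on HMACT saline replicates 1 and 3 (150 and 154 days, Csnk1e 9.01 and 9.37). The methamphetamine pair, 150 and 149.75 days, read 8.39 and 8.53, so no conclusion on age is drawn from it. All 6 older HMACT pools were in the largest lot, where the 2 younger HMACT pools both read 8.48.

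The strongest relation of Csnk1e to any array measure was with the 3' minus 5' difference of the array's actin and Gapdh control probe sets. This difference grows when the 5' part of a transcript gives less signal than the 3' part, as in partly degraded or incompletely copied RNA. It averaged 2.11 ± 0.55 (SD, n = 6) for HMACT after saline and 2.35 ± 0.29 (SD, n = 6) for HMACT after methamphetamine. The LMACT saline pools averaged 2.63 ± 0.13 (SD, n = 6), and the LMACT drug pools 2.87 ± 0.96 (SD, n = 5). The order of these means is the reverse of the order of the Csnk1e means. LMACT methamphetamine replicate 5, with the lowest Csnk1e, had the highest difference (4.57), and HMACT saline replicate 3, with the highest Csnk1e, had the lowest (1.07).

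Across the 23 arrays the deviations from group means had a Pearson r of -0.73 (permutation p = 0.0131, adjusted over 6 relations p = 0.0393) and a Spearman rho of -0.61 (permutation p = 0.0073, adjusted p = 0.0219). Without those 2 arrays, the farthest from the median, r was -0.08, so the linear relation rests on them. Within the largest lot (n = 15) r was -0.80 (permutation p = 0.0563) and rho was -0.71 (permutation p = 0.0285), and without the 2 farthest arrays r was 0.17. The actin and Gapdh controls taken singly gave r of -0.72 and -0.69 (adjusted permutation p = 0.0393 and p = 0.0404), and rho of -0.62 and -0.52 (adjusted permutation p = 0.0219 and p = 0.0481). Without the 2 farthest arrays the r values were -0.16 and 0.03.

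**Figure D3:**
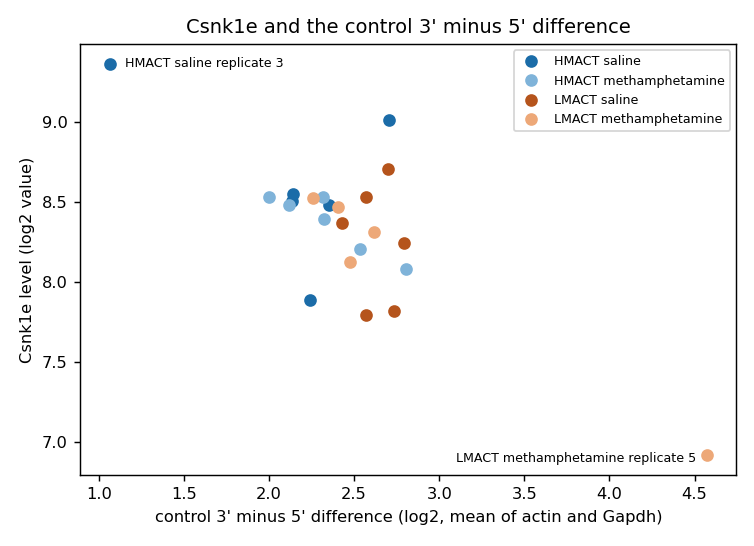
Csnk1e log2 level against the 3' minus 5' difference of the actin and Gapdh controls (log2, mean of both), 1 point per array, coloured by group. HMACT saline replicate 3 (1.07, 9.37) and LMACT methamphetamine replicate 5 (4.57, 6.92) lie at opposite corners, and the other 21 arrays form a cloud in which r of the deviations is -0.08.

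Fitted as a covariate in limma, the control difference had a slope on Csnk1e of -0.60 log2 units per log2 unit (SE 0.131, adjusted p = 0.00751), and 7.23% of all probe sets were called for it. The slope was -0.58 (adjusted p = 0.0271) without HMACT saline replicate 3, -0.48 (adjusted p = 0.155) without LMACT methamphetamine replicate 5 and -0.12 (adjusted p = 1) without both. Without both arrays 0.00805% of all probe sets were called for the control difference. With the covariate the Csnk1e line difference was 0.03 (SE 0.148) and the drug effect -0.07 (SE 0.135), both with a limma adjusted p of 1. Without the 2 arrays, and with no covariate, they were 0.13 (SE 0.135; limma adjusted p = 0.864) and -0.00 (SE 0.135; limma adjusted p = 1). With both age and the control difference as covariates the line difference was -0.12 (SE 0.153; limma adjusted p = 1). The part of RNA quality in the line difference was not tested beyond these values.

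Csnk1e on the 4 arrays that stood apart ran from 8.53 to 9.37. Among the other 19 arrays its deviations had an r of -0.14 (permutation p = 0.537) and a rho of -0.18 (permutation p = 0.480) with the score on that axis, and r was -0.42 without the 2 farthest arrays. Without the 4 arrays the line difference was 0.30 (SE 0.205; limma adjusted p = 0.672) and the drug effect -0.21 (SE 0.205).

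Markers of other cell types were read as summed levels. The summed level of 4 oligodendrocyte markers (of 5 listed, as log2) ran from 12.04 to 13.1 in HMACT and from 12.8 to 13.6 in LMACT. It averaged 12.8 and 12.6 in HMACT after saline and methamphetamine, and 13.2 and 13.3 in LMACT. All 4 markers had a lower mean in HMACT by their brightest probe sets, none past the threshold, with Mobp, a myelin gene, at -0.80 (SE 0.193; limma adjusted p = 0.134). A dimmer Mobp probe set did pass, with -0.50 (SE 0.0934, limma adjusted p = 0.0312), while the other 2 had 0.09 and -0.17. A second probe set of Mbp, another of these markers, had 0.10 (SE 0.141). By the brightest probe sets, 3 of the 4 markers were higher in HMACT after saline alone and 0 after methamphetamine alone. Of all genes above the floor 54.8% and 43.2% were. The 4 astrocyte markers ran from 13.1 to 13.7 in HMACT and from 13.3 to 14.0 in LMACT, and the 5 microglial markers from 10.1 to 11.3 and from 10.5 to 11.1. Ctss, the brightest microglial marker, had group means from 9.99 to 10.6 and a line difference of -0.38 (SE 0.185). Single markers went both ways. The mean was higher in HMACT for 2 of the 4 astrocyte and 3 of the 5 microglial markers, against 52.2% of all genes. None of them passed the threshold. The cortical sum, carried by Tbr1 with Neurod6 at the floor on all but 1 array, ran from 8.35 to 10.2 in HMACT and from 9.01 to 10.4 in LMACT. Its highest value was on LMACT methamphetamine replicate 5. The 3 endothelial markers ran from 6.39 to 7.22 in HMACT and from 6.21 to 7.47 in LMACT. The choroid plexus sum ran from 4.51 to 5.34 in HMACT and from 4.48 to 4.85 in LMACT, with Ttr at the floor on every array. As a description, deviations of the sums from group means had r with those of Csnk1e of 0.32 (oligodendrocytes), 0.17 (astrocytes) and 0.03 (microglia). The r was -0.36 for the cortical sum, 0.20 for endothelium and -0.05 for choroid plexus. For the summed striatal projection neuron markers it was -0.38. The part of these markers in the Csnk1e values was not tested beyond these values.

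Of the 5 other casein kinase genes measured, by their brightest probe sets, 3 had a positive line difference and 2 a negative one. Each of the 3 positive differences was smaller than its SE. Other probe sets of Csnk1d and Csnk2a2 had line differences of both signs. Of 9 listed casein kinase genes, 6 were on the array with Csnk1e included, all above the floor on some array, and 0 of 6 passed in limma for the line, where 0.227% of the 6162 genes above the floor were called. At an unadjusted p under 0.05 there was 1, which was lower in HMACT, against 16.9% of those genes in either direction. The median of the 6 was 0.04 against 0.01 over all genes. The genes Csnk1g1, Csnk1g3 and Csnk2b were not analysed here.

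Csnk1d encodes casein kinase 1 delta, the closest relative of casein kinase 1 epsilon and its partner in phosphorylating PER proteins. Its line difference was 0.17 (SE 0.175) and its drug difference 0.15 (SE 0.175), neither past the threshold. Across the 23 arrays its level had an r of 0.09 with that of Csnk1e, given as a description of pools that share RNA and array. Dimmer Csnk1d probe sets that rose above the floor, with mean levels of 2.91 and 2.60, had r of 0.52 and -0.44. Their line differences were -0.04 (SE 0.0613) and 0.01 (SE 0.0343). Csnk1a1 encodes casein kinase 1 alpha, which primes beta-catenin for degradation. It had a line difference of -0.38 (SE 0.276), and its second probe set -0.47 (SE 0.212). The first value ran from -0.48 to -0.21 over omissions of 1 array. It was -0.09 without the 4 arrays that stood apart, 0.02 with age as a covariate and -0.07 with the control difference. Its lowest readings, 9.71, 10.07 and 10.84, were on 3 of the 4 arrays that stood apart. For Csnk1g2, casein kinase 1 gamma, the line difference was 0.07 (SE 0.349) and the drug difference 0.52 (SE 0.349). The 2 lines had drug differences of opposite sign: in HMACT methamphetamine went with a log2 difference of -0.38 (SE 0.481), while LMACT had one of 1.43 (SE 0.505), each with a limma adjusted p of 1. The interaction was -1.81 (SE 0.698; limma adjusted p = 0.884). The line difference of Csnk1g2 was 0.97 (SE 0.481) after saline and -0.84 (SE 0.505) after methamphetamine. Its drug difference in HMACT was smaller than the SE. The highest Csnk1g2 readings, 11.99, 11.81 and 11.54, were on 3 of the 4 arrays that stood apart.

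Casein kinase 2 belongs to another kinase family in spite of its name. Csnk2a1, a catalytic subunit that also phosphorylates DARPP-32, had a line difference of -0.35 (SE 0.142; limma adjusted p = 0.399), the one with an unadjusted p under 0.05. A further probe set of Csnk2a1, also above the floor on all 23 arrays, gave 0.02 (SE 0.0801). Csnk2a2, the other catalytic subunit, had line and drug differences of 0.01 (SE 0.0686) and -0.09 (SE 0.0686). For the mean drug effect none of the 6 passed in limma or had an unadjusted p under 0.05, against 0.0325% and 1.98% of all genes above the floor. Within lines, Csnk1g2 was the one with an unadjusted p under 0.05, in LMACT and for the interaction, where 4.35% and 3.44% of genes had one; in HMACT there was none, against 1.96%.

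**Figure D4:**
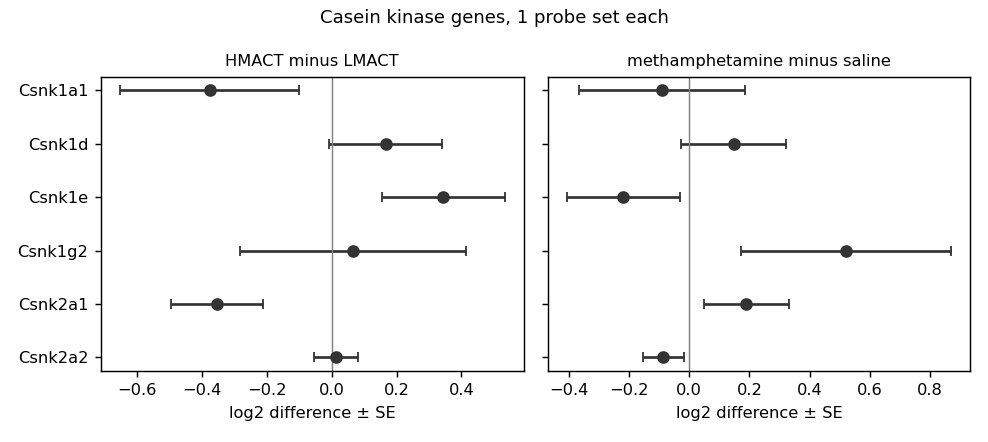
Log2 differences with standard errors for the 6 casein kinase genes, 1 probe set each, between lines (left) and between injections (right). Csnk1e is at 0.34 between lines, Csnk1a1 and Csnk2a1 are at -0.38 and -0.35, and no gene passed the adjusted threshold in either panel.

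Among clock genes, whose PER proteins are substrates of casein kinase 1 epsilon, 0 of 16 tested (23 listed) passed for the line in limma. At an unadjusted p under 0.05, 1 was higher and 1 lower in HMACT, where 6.59% and 10.3% of all genes were. Positive and negative differences numbered 8 each, and the median was -0.01. The PAR bZIP factor gene Tef was the higher one, with 0.41 (SE 0.160), and 0.10 with the control 3' minus 5' difference as a covariate. Tef, Per2 and Bhlhe40 were the 3 of 16 clock genes called for that covariate, each with a negative slope. Of the 6162 genes above the floor 9.27% were called for it, 5.37% with a negative slope. Without the arrays of highest and lowest control difference, 0.00805% of all probe sets were called for it. Clock, which encodes the transcriptional activator of the core loop, was the lower one, with -0.64 (SE 0.288). Nr1d2, a nuclear receptor that represses that loop, had -0.64 (SE 0.350) and the bZIP repressor gene Nfil3 0.20 (SE 0.103). For the mean drug effect 0 of 16 passed, and none had an unadjusted p under 0.05, against 0.0325% and 1.98% of all genes. Within a line none had one either, against 1.96% of all genes in HMACT and 4.35% in LMACT. The clock genes with the smallest p-values for the mean drug effect were Cry2 and Per3. They had log2 differences of 0.04 and 0.01 and were above the floor on 2 arrays and 1 array.

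DARPP-32 signalling genes also gave 0 of 16 tested (28 listed) past the threshold for the line. At an unadjusted p under 0.05, 1 was higher and 4 were lower in HMACT, where 6.59% and 10.3% of all genes were. The median was -0.12, against 0.01 over all genes. Prkaca, a catalytic subunit of protein kinase A, had the largest difference of those named, 1.15 (SE 0.332, limma adjusted p = 0.225). It was 0.74 with the control 3' minus 5' difference as a covariate. The regulatory subunit gene Prkar1a had -0.28 (SE 0.111) and the protein phosphatase 2A catalytic gene Ppp2ca -0.37 (SE 0.158), beside Csnk2a1 given above. For the mean drug effect none of the 16 passed in limma or had an unadjusted p under 0.05, against 0.0325% and 1.98% of all genes. Those of the 16 with the smallest p-values were Cdk5r1, an activator of Cdk5, with a log2 difference of 0.05, and Ppp3cb, a calcineurin subunit, with -0.23. Cdk5r1 was above the floor on 2 arrays. It was the gene of this list with an unadjusted p under 0.05 in LMACT alone, where 4.35% of all genes had one.

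Of 25 listed Wnt genes 16 were tested, and 0 passed for the line. None was higher and 2 were lower in HMACT at an unadjusted p under 0.05, both of them Frizzled receptor genes, against 6.59% and 10.3% of all genes. The median was -0.00. Fzd4 had -0.66 (SE 0.189, limma adjusted p = 0.224) and Fzd3 -0.28 (SE 0.108). Fzd3 lay close to the floor, with group means from 2.33 to 2.75, and was above it on 19 arrays. A second Fzd3 probe set, above the floor on 2 arrays, had -0.0045 (SE 0.0102). Ddx3x, an RNA helicase that stimulates casein kinase 1 epsilon in Wnt signalling, had -0.55 (SE 0.305), and the scaffold gene Axin1 had 0.27 (SE 0.154). For the mean drug effect none of the 16 Wnt genes passed in limma or reached an unadjusted p under 0.05, against 0.0325% and 1.98% of all genes. Fzd4 was at 0.37 (SE 0.189) and Fzd3 at 0.13 (SE 0.108). In LMACT alone 1 was higher and 1 lower at an unadjusted p under 0.05, Fzd4 with 0.60 (SE 0.273) and Ctnnb1, the beta-catenin gene, with -0.52 (SE 0.241). Of all genes above the floor 4.35% had such a p in either direction.

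Genes next to Csnk1e on its chromosome were described because selection acts on chromosome segments. The 10 nearest genes with a probe set on each side were taken in the order of the RefSeq table of GRCm38.p6, without coordinates, since the files name no build. Of these 20 genes, 7 never rose above the floor (Maff, Slc16a8, Sh3bp1, Kdelr3, Dmc1, Cbx7 and Pdgfb). Among the other 13, 0 passed in limma and 11 had a higher mean in HMACT, against 52.2% of the 6162 genes above the floor; the median was 0.18 against 0.01. The count was 11 of 13 after saline, with a median of 0.38, against 54.8% of genes. After methamphetamine it was 6 of 13, with a median of -0.04, against 43.2% of genes. The difference between the 2 counts was not tested. For the mean line difference, at an unadjusted p under 0.05 none of the 13 was higher in HMACT and 1 was lower, against 6.59% and 10.3% of genes.

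On the side of Pla2g6, a phospholipase gene, the nearest measured neighbours were Pla2g6 itself with 0.35 (SE 0.198), Pick1, which encodes a PDZ protein of glutamate receptor trafficking, with 0.06 (SE 0.181), and the oligodendrocyte transcription factor gene Sox10 with 0.07 (SE 0.317). On the other side, Kcnj4, an inward rectifier potassium channel gene, had 0.24 (SE 0.159). Both it and Pla2g6 lay close to the floor, with group means from 2.48 to 3.25. The RNA helicase gene Ddx17 had -0.34 (SE 0.184) and -0.40 (SE 0.190) in its second probe set, and Gtpbp1, a GTP-binding protein gene, had 0.55 (SE 0.352). Cbx6, a Polycomb group gene further out, had -0.42 (SE 0.186; limma adjusted p = 0.432) and -0.12 in its second probe set.

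The count of neighbours with a higher mean in HMACT varied with the setting. The count of 11 of 13 was 7 with age as a covariate, 6 among pools under 100 days and 5 with the control 3' minus 5' difference as a covariate. Of all genes above the floor, 52.2% had a higher mean in HMACT with no covariate. In those settings, in that order, 48.3%, 44.3% and 44% did. The neighbour count was 7 with array weights, 7 without the 4 arrays that stood apart and 7 without HMACT methamphetamine replicate 3 alone. The shares of all genes there were 55.3%, 48.3% and 49.4%. With age and the control difference together as covariates the neighbour count was 3, with a median of -0.13, against 42.2% of all genes. It was 7 without the arrays of highest and lowest control difference, against 49.4%. Without LMACT methamphetamine replicate 5, which lowered the Csnk1e difference to 0.20, the neighbour count was 9 with a median of 0.19, against 51.5% of all genes. The control difference itself was called for 2 of the 13 neighbours, Gtpbp1 and Eif3l, both with a negative slope as for Csnk1e, against 9.27% of all genes above the floor.

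**Figure D5:**
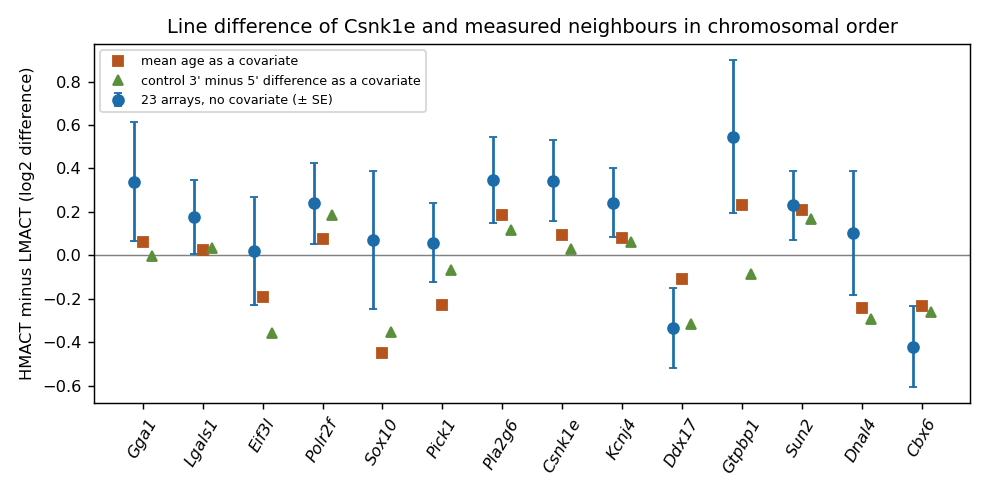
Log2 difference between lines (HMACT minus LMACT) for Csnk1e and its 13 measured neighbours in chromosomal order, not to scale: circles with standard errors are the fit with no covariate, squares have mean age as a covariate and triangles the control 3' minus 5' difference. With no covariate 11 of the 13 neighbours are above 0, and 7 and 5 are with the covariates. Of all genes above the floor 52.2%, 48.3% and 44% are above 0 in the same fits.

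The genes whose level followed that of Csnk1e most closely over the 23 arrays were listed as a description, among 5296 genes above the floor on 12 arrays or more. Abr, Necap1, an endocytic adaptor gene, and Ext1, a heparan sulfate polymerase gene, each had a Pearson r of 0.78. Prkar1b, a regulatory subunit of protein kinase A, and Ngdn each had 0.77. Deviations from group means gave 0.78 for Abr, 0.80 for Necap1, 0.72 for Ext1, 0.72 for Prkar1b and 0.72 for Ngdn. Ngdn was near the floor, and its Spearman rho was 0.48.

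The most opposite patterns were those of Epb41l4aos (-0.84), Mettl8 (-0.84) and the kinase gene Dyrk1a (-0.83). On LMACT methamphetamine replicate 5, where Csnk1e was lowest, Dyrk1a read 7.49 against a mean of 6.45 on the other arrays, and its Spearman rho with Csnk1e was -0.33. Without that array the r values were 0.76 for Abr, 0.79 for Necap1, 0.79 for Ext1, 0.64 for Prkar1b, 0.66 for Ngdn, -0.81 for Epb41l4aos, -0.78 for Mettl8 and -0.68 for Dyrk1a. Genes on an array share its RNA and its normalization.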

How the data were processed

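RNA from 23 nucleus accumbens pools was hybridised as biotin-labelled cRNA, 1 Affymetrix array per pool. The deposited log2 values were normalized by the authors; the scale was inferred from the values. How background, normalization and summary were done is not stated in the labels; per the submitters' processing notes R 2.7.1 was used, for steps they do not name.

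Of 12488 probe sets, 66 controls were left out of the tests; 10833 had 1 gene, 396 several and 1193 none, and 10817 matched RefSeq. For genes with several probe sets the brightest was used. All 253 pairs of arrays differed. limma 3.58.1 in R 4.3.3 fitted 4 group means without covariates (7 comparisons, adjusted over 12422 probe sets, two-sided). Exact permutation tests (Python 3.11.15) rearranged pools within groups compared; relations to array measures used 100000 permutations within groups. The script was also tested on simulated data. Members and lists were chosen with earlier results of these data known. Named genes were all casein kinase genes, the 4 and 2 smallest p-values of each list for line and drug, the 5 nearest neighbours on each side and any with p under 0.05, and the 5 most and 3 least similar genes. Eif3l, Ctnnb1, Per2, Bhlhe40, Mobp, Mbp and Ctss were named after their values were seen.

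Alternatives were other normalizations, filters, array weights, lot, age, control difference, blocks and omitted arrays. Same-numbered pools of a line correlated above 0.1 in 8 of 11 pairs (4 of 11 pairs sharing the injection, and 4 of 11 sharing neither). They had like ages and the same lot, except that the LMACT pools of replicate 4 were in lots C and D. Not every pair correlated, and the labels name no shared animal or batch. A block on the number is therefore an alternative only. Lot D was counted with lot C.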

Additional observations from a re-analysis of the deposited data

Results flagged for a closer look

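Each group of 5 or 6 arrays was screened for a highest or lowest array far from the rest by Dixon's criterion, for the 6 casein kinase genes and the control 3' minus 5' difference. Of 28 such groups 7 held one, and chance marks about 5% of groups. Csnk1e had its lowest LMACT methamphetamine value, 6.92, in replicate 5, and the control 3' minus 5' difference had its highest, 4.57, on the same array. That difference had its lowest HMACT saline value, 1.07, in replicate 3. Csnk1a1 was low on that array too (9.71). It was also low in HMACT methamphetamine replicate 3 (10.07) and LMACT methamphetamine replicate 4 (10.84). Csnk2a1 was lowest in HMACT methamphetamine replicate 3 (7.12), where Csnk1e read 8.53.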

How the results depend on the processing

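Over 277 combinations of the 7 Csnk1e comparisons with another setting, 0 passed the adjusted threshold in limma and 13 changed direction. An unadjusted p under 0.05 occurred for the mean line difference in the largest lot, and for it and the difference after saline without HMACT saline replicate 4. The mean line difference was -0.12 with age and the control 3' minus 5' difference as covariates, where the values after saline and after methamphetamine were -0.072 and -0.16; with the control difference alone the latter was -0.012. The LMACT drug effect was 0.11 without the arrays of highest and lowest control difference. The interaction was 0.069 in the largest lot, 0.13 in pools under 100 days and 0.16 without the 4 arrays apart. Leaving out each array gave 0.20 to 0.42 for the mean line difference, 0.24 to 0.54 after saline, 0.01 to 0.41 after methamphetamine, -0.29 to -0.07 for the mean drug effect, -0.41 to -0.12 in HMACT, -0.29 to 0.11 in LMACT and -0.38 to 0.06 for the interaction; the changes of direction were 0.11 (LMACT), and 0.057, 0.00023, 0.0096 and 0.025 (interaction). Leaving out the arrays of extreme control difference, the pair of covariates and the random block on replicate number were chosen after seeing the data.

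With a replicate block the mean line difference was 0.35 and the drug effect -0.26; the pairing of numbers is not given by the labels, 7 of 22 arrays correlated best with their own number, and no call changed. Probe sets called for the line numbered 17, against 30 with quantile normalization, 39 without the dimmest 40%, 1014 with array weights, 1 in the largest lot, 2 with age, 0 under 100 days, 6 with the control difference, 8 with the random block, 2 with age and the control difference, 61 without the arrays apart and 7 to 55 without 1 array. For the drug 2 were called, against 0 to 7. No casein kinase, clock, DARPP-32, Wnt or neighbouring gene passed for the line in any omission of 1 array. Signal over the floor and the number of arrays limit these values.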
